A study of Mus musculus with 6 samples.

Results

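The 10 genes described here encode the alpha and beta tubulin isotypes Tuba1a, Tuba1b, Tuba1c, Tuba4a, Tubb2a, Tubb2b, Tubb3, Tubb4b, Tubb5 and Tubb6. They were taken by their names from tables of 41102 features, and 4 of them are alpha and 6 are beta tubulins. RNA was sequenced from embryonic mouse lenses at E13.5 in 3 Prox1 cKO pools (genotype Prox1 f/f MLR10Cre+, in which a Cre transgene active in lens cells removes floxed Prox1) and in 3 pools of wild type lenses, with strain C57Bl/6 given for both groups. The series text writes the wild type strain as C57Bl/6 <har>. Each pool held 30 lenses and is labelled as a biological replicate, and the labels do not say how many embryos or litters entered it. No group carried floxed Prox1 without Cre or Cre without floxed Prox1, so the transgene, the floxed background and the loss of Prox1 cannot be told apart here.

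Microtubules are hollow polymers of dimers, each made of 1 alpha and 1 beta tubulin. The mammalian genome holds several genes for each, whose protein products differ mainly in the acidic tail at the C terminus, where enzymes add or remove tyrosine and glutamate residues and where motors and other microtubule-binding proteins dock. In the lens, primary fibre cells elongate from the back of the lens vesicle to fill it, and microtubules run along their length. Prox1 is a homeodomain transcription factor needed for that elongation and for crystallin expression.

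The ends of the coding sequences of 4 beta members show how alike some of the isotypes are, which bears on the counts below, and they hold the tails in which the isotypes differ most. The last 60 bases of each, stop codon included, are given 5′ to 3′ from the GENCODE M21 transcripts on GRCm38. Capitals mark bases that differ from Tubb5, or face a gap in it, when the whole coding sequences are aligned.
Tubb5: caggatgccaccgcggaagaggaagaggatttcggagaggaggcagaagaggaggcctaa
Tubb2a: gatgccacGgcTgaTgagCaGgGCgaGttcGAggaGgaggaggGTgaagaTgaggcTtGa
Tubb2b: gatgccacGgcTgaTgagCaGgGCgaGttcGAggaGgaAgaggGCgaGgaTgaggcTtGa
Tubb4b: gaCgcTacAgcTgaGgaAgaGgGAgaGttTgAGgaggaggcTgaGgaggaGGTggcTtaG
From Tubb5, Tubb2a differed at 16 bases, Tubb2b at 18 and Tubb4b at 20, with bases that face a gap counted as differing. The Tubb2a and Tubb2b ends are nearly the same, while Tubb4b has an end of its own.

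Over the whole coding sequence, Tuba1a and Tuba1b were 98.3% identical, Tuba1a and Tuba1c 97.1%, Tuba1b and Tuba1c 97.9%, and Tubb2a and Tubb2b 96.5%. Tuba1a (chr15:98949837-98953703), Tuba1b (chr15:98931425-98934565) and Tuba1c (chr15:99029891-99038110) are neighbours in GRCm38, the first pair on the minus strand and Tuba1c on the plus strand. Tubb2a (chr13:34074274-34078007) and Tubb2b (chr13:34126748-34130466) are also neighbours, both on the minus strand. Tubb5 lies on the minus strand at chr17:35833921-35838306 and Tubb4b on the minus strand at chr2:25222160-25224702. Tubb3 lies on the plus strand at chr8:123411424-123422015, and Tuba4a on the minus strand at chr1:75214228-75219865.

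Reads were 51 bases long, so the share of 51-base stretches of a transcript that also occur in another listed gene says how far its counts can be told apart. That share was 63.7% for Tuba1a, 65.8% for Tuba1b and 51.6% for Tuba1c, mostly with each other and with listed genes such as Gm17383 and Gm14150. It was 45.4% for Tubb2a and 31.2% for Tubb2b, nearly all with each other. Tubb4b shared 37.8% of its stretches, mainly with Tubb4b-ps1. Tuba4a shared 35.3%, mainly with Stk16, a gene on the opposite strand that overlaps 37.3% of its exon bases, and the library kit kept no strand. Tubb5 shared 0.0297%, and no stretch of Tubb3 or Tubb6 was shared. The sources used here do not say how the counting treated reads that match several genes, so the split of counts within the Tuba1 group, within the Tubb2 pair and between Tubb4b and its pseudogene is uncertain.

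The libraries held between 9082219 and 28391662 counts in the Prox1 cKO group and between 20731491 and 21061582 in the wild type group. Prox1 itself was at 651, 728 and 707 TMM-scaled CPM (CPM after scaling of the libraries by the trimmed mean of M values) in Prox1 cKO libraries 1 to 3, against 922, 1215 and 1246 in wild type libraries 1 to 3. It was 1.62-fold lower (log2 change -0.70, SE 0.141, edgeR adjusted p = 0.0074), and under library totals its log2 change was -0.34 (edgeR adjusted p = 0.0532). The sources used here do not name the floxed exon, and reads outside the deleted part do not check the deletion. Of the lens markers, 9 of 10 tested fell, where 16.8% of all genes tested fell. Crystallin genes took 2.83% to 3.14% of the counts of Prox1 cKO libraries and 13.2%, 21.5% and 22.7% in wild type libraries 1, 2 and 3. Wild type library 1 thus stood apart from the other wild type libraries. Lars2 took 0.676% of the counts of Prox1 cKO library 1 but 5.71% and 7.05% of libraries 2 and 3, against 0.878% to 1.74% in the wild type libraries. Markers of tissues around the lens were also higher in Prox1 cKO pools: 6 of 8 pigment cell markers, 5 of 9 periocular mesenchyme markers, 5 of 7 surface ectoderm markers and 4 of 11 neural retina markers rose. Of all genes tested 15.9% rose. The pigment cell markers summed to 280.4 to 768 TMM-scaled CPM in Prox1 cKO libraries and to 90.2 to 206 in wild type libraries, and the mesenchyme markers, of which Foxc2 had no count, to 806 to 3624 in Prox1 cKO libraries and 308 to 634 in wild type libraries. The ectoderm markers summed to 38.8 to 167 in Prox1 cKO libraries and 20.2 to 33.9 in wild type libraries, and the retina markers to 399 to 592 in Prox1 cKO libraries and 242 to 375 in wild type libraries. The pigment cell, mesenchyme and ectoderm sums were highest in Prox1 cKO library 3, which stood apart with 768, 3624 and 167. Libraries 1 and 2 had 382 and 280.4, 1205 and 806, and 69.7 and 38.8. The retina sum was highest in Prox1 cKO library 1. Of the markers of erythroid cells 3 of 9 rose, of blood vessels 1 of 7 and of macrophages 0 of 7, beside the same 15.9% of all genes. The part of these tissues in the tubulin results was not tested. These are bulk pools, so fewer cells of a type and less RNA per cell cannot be told apart.

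All 10 tubulin genes were tested. In the Prox1 cKO pools Tubb2a, Tubb6, Tubb4b and Tuba1a fell, Tuba1c rose, and Tuba1b, Tuba4a, Tubb2b, Tubb3 and Tubb5 did not pass the threshold of 0.05. Those are 4 members that fell and 1 that rose, where 16.8% of all 14271 genes tested fell, 15.9% rose and 32.6% changed in either direction. The median log2 change of the 10 members was -0.08, beside 0.04 over all genes tested. For 5 members every Prox1 cKO library lay on one side of every wild type library, as did 50.1% of all genes tested. Levels below are TMM-scaled CPM of 1 gene across libraries, and p-values are Benjamini-Hochberg adjusted over all genes tested.

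**Figure D1:**
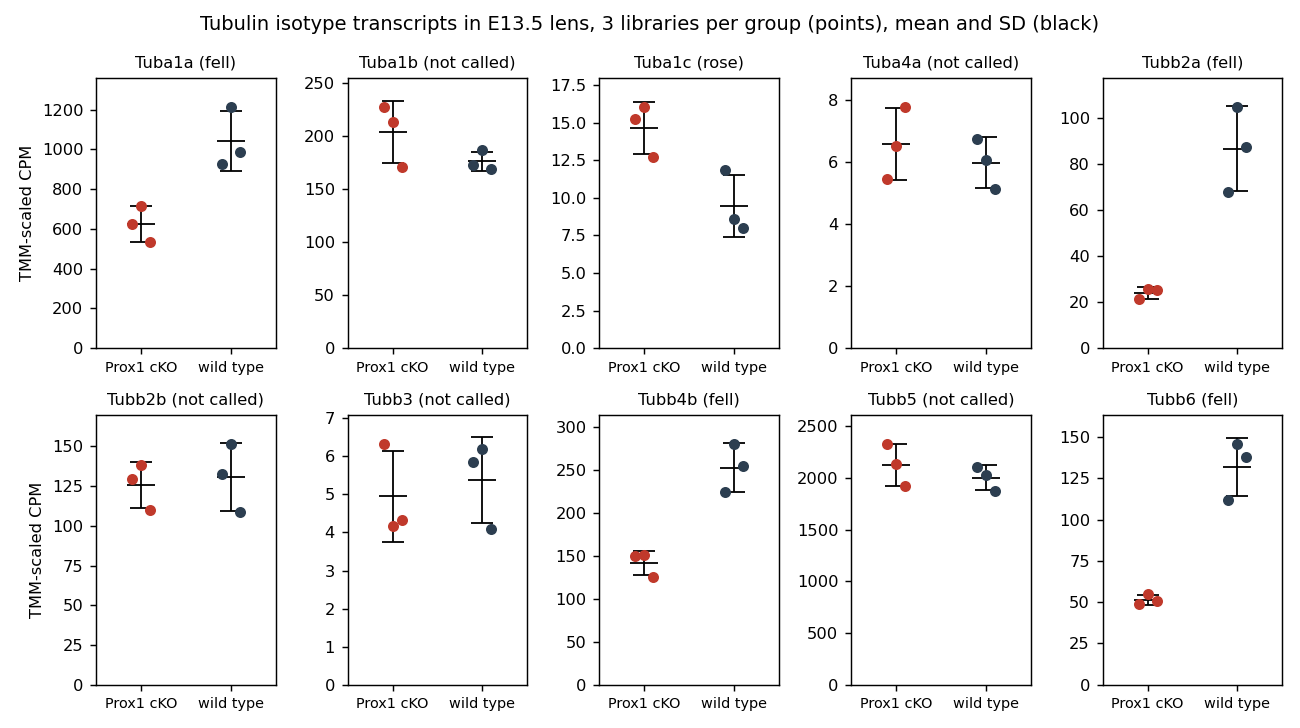
Level of each of the 10 tubulin genes in TMM-scaled CPM (vertical axis, from 0) in 3 Prox1 cKO libraries (red, left) and 3 wild type libraries (dark, right), with the mean and SD in black and the edgeR call in each title. The groups do not overlap for Tuba1a, Tuba1c, Tubb2a, Tubb4b and Tubb6.

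Tubb2a, a class II beta tubulin abundant in brain, had the largest change of the 10 members. It was at 21.2, 25.7 and 25.0 CPM in Prox1 cKO libraries 1 to 3, against 67.6, 104 and 87.1 CPM in wild type libraries 1 to 3. The groups did not overlap, and the lowest wild type library was library 1. Tubb2a fell 3.62-fold (log2 change -1.86, SE 0.167, 95% interval -2.24 to -1.48, edgeR adjusted p = 0.000203).

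Tubb2b is the close paralog next to Tubb2a. It was at 129, 138 and 109.7 CPM in Prox1 cKO libraries 1 to 3, against 132, 151 and 109 CPM in wild type libraries 1 to 3. The 2 sets of values covered nearly the same range, and library 2 was the highest in both. Its log2 change was -0.06 (SE 0.140, 95% interval -0.37 to 0.26, edgeR adjusted p = 0.779), an interval that holds neither the fall of Tubb2a nor a change of that size in the other direction. The ratio of their counts within each library was also taken, a value that no scaling between libraries can alter. Because the pair shares sequence, this ratio may depend on how reads that match both genes were counted. There were 0.164, 0.186 and 0.228 Tubb2a counts per Tubb2b count in Prox1 cKO libraries 1 to 3, against 0.511, 0.690 and 0.802 in wild type libraries 1 to 3. Every Prox1 cKO ratio was below every wild type ratio. This and the other count ratios given here were chosen after values were seen, so they are descriptions with no test.

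Tubb6 encodes a divergent class V beta tubulin, and no part of its transcript was shared with another listed gene. It was at 48.8, 54.7 and 50.5 CPM in Prox1 cKO libraries 1 to 3, against 112, 146 and 138 CPM in wild type libraries 1 to 3. The Prox1 cKO libraries lay close together and all below the wild type libraries, of which library 1 was again the lowest. Tubb6 fell 2.57-fold (log2 change -1.36, SE 0.118, 95% interval -1.63 to -1.09, edgeR adjusted p = 0.000181).

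Tubb4b, a broadly expressed class IV beta tubulin that is also abundant in cilia, was at 149.8, 150.2 and 126 CPM in Prox1 cKO libraries 1 to 3, against 224, 279.7 and 254 CPM in wild type libraries 1 to 3. The groups did not overlap. It fell 1.78-fold (log2 change -0.83, SE 0.119, 95% interval -1.10 to -0.56, edgeR adjusted p = 0.00159). The markers of multiciliated cells had a summed level of 32.4 to 40.2 CPM in Prox1 cKO libraries and 31.7 to 36.9 CPM in wild type libraries.

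Tubb5, the class I beta tubulin found in most cells, was at 2330.0, 2138 and 1925 CPM in Prox1 cKO libraries 1 to 3, against 2109, 2032 and 1875 CPM in wild type libraries 1 to 3. The groups overlapped, with Prox1 cKO library 1 the highest of all 6. Its log2 change was 0.09 (SE 0.128, 95% interval -0.20 to 0.38, edgeR adjusted p = 0.620). With Tubb5 as the base, the count of Tubb6 per Tubb5 count was 0.0209, 0.0256 and 0.0262 in Prox1 cKO libraries 1 to 3, against 0.0530, 0.0717 and 0.0736 in wild type libraries 1 to 3. The count of Tubb4b per Tubb5 count was 0.0643, 0.0703 and 0.0653 in Prox1 cKO libraries 1 to 3, against 0.106, 0.138 and 0.135 in wild type libraries 1 to 3. Neither ratio overlapped between the groups.

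Tubb3, the class III beta tubulin, is widely used as a marker of neurons. It was at 6.32, 4.17 and 4.34 CPM in Prox1 cKO libraries 1 to 3, against 5.84, 6.18 and 4.09 CPM in wild type libraries 1 to 3. The values were low and mixed between the groups, and its log2 change was -0.09 (SE 0.246, 95% interval -0.66 to 0.47, edgeR adjusted p = 0.784). The 14 neuronal markers summed to 247, 204 and 222 CPM in Prox1 cKO libraries 1 to 3, against 256, 276 and 179 CPM in wild type libraries 1 to 3. In the wild type group both Tubb3 and that sum were lowest in library 3. Of these markers Syt1 rose, Elavl4 fell and 12 were not called, where 15.9% of all genes tested rose and 16.8% fell. Whether neurons in the pools gave the Tubb3 counts was not tested.

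Tuba1a, the main alpha tubulin of developing neurons, was at 627, 715 and 533 CPM in Prox1 cKO libraries 1 to 3, against 924, 1211 and 986 CPM in wild type libraries 1 to 3. All Prox1 cKO values were below all wild type values. Tuba1a fell 1.66-fold (log2 change -0.74, SE 0.153, 95% interval -1.08 to -0.39, edgeR adjusted p = 0.00843). Scaled by library totals alone, its log2 change was -0.38 with an edgeR adjusted p = 0.0676, so the call depended on the scaling.

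Tuba1b, a broadly expressed alpha tubulin, was at 227, 213 and 171 CPM in Prox1 cKO libraries 1 to 3, against 172, 186 and 169 CPM in wild type libraries 1 to 3. Prox1 cKO library 3 lay among the wild type values and the other Prox1 cKO libraries above them. Its log2 change was 0.21 (SE 0.120, 95% interval -0.06 to 0.49, edgeR adjusted p = 0.203). It passed the threshold under library totals (log2 change 0.57, edgeR adjusted p = 0.0132) and without Prox1 cKO replicate 3 (log2 change 0.32, edgeR adjusted p = 0.0449). The count of Tuba1a per Tuba1b count was 2.76, 3.36 and 3.13 in Prox1 cKO libraries 1 to 3, against 5.37, 6.50 and 5.84 in wild type libraries 1 to 3. This ratio did not overlap between the groups either.

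Tuba1c was the one member that rose. It was at 15.3, 16.0 and 12.7 CPM in Prox1 cKO libraries 1 to 3, against 11.8, 8.59 and 8.002 CPM in wild type libraries 1 to 3. The groups did not overlap, but Prox1 cKO library 3 and wild type library 1 were close. It rose 1.55-fold (log2 change 0.63, SE 0.187, 95% interval 0.21 to 1.06, edgeR adjusted p = 0.0327). The call was lost without any one of 4 libraries, with an edgeR adjusted p = 0.0741 without Prox1 cKO library 1, 0.0976 without Prox1 cKO library 2, 0.128 without wild type library 2 and 0.124 without wild type library 3. In coding sequence 88.7% of its 51-base stretches also occur in other listed genes, among them Tuba1a, which had 41.1 to 44.6 counts per Tuba1c count in Prox1 cKO libraries and 78.1 to 141 in wild type libraries.

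Tuba4a encodes an alpha tubulin made without the terminal tyrosine. It was at 5.44, 6.51 and 7.77 CPM in Prox1 cKO libraries 1 to 3, against 6.76, 6.07 and 5.12 CPM in wild type libraries 1 to 3. The groups overlapped, and its log2 change was 0.12 (SE 0.202, 95% interval -0.34 to 0.58, edgeR adjusted p = 0.677). Its counts may include reads of Stk16 from the opposite strand.

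**Figure D2:**
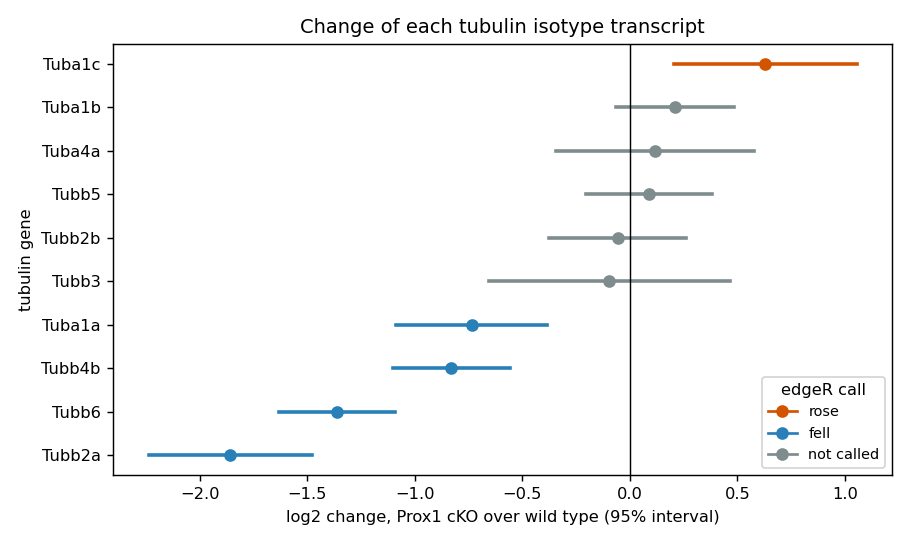
Log2 change of each tubulin gene, Prox1 cKO over wild type (horizontal axis), with its 95% interval from edgeR, coloured by call. The intervals of Tuba1a, Tubb4b, Tubb6 and Tubb2a lie below 0, that of Tuba1c above 0, and the other 5 span 0.

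Shares within each class were computed from RPKM (CPM per kilobase of gene length), so that levels of different genes could be compared per length. The alpha class shifted between its main members. Tuba1a held 74.5%, 77.9% and 76.5% of the summed alpha RPKM in Prox1 cKO libraries 1 to 3, against 84.9%, 87.5% and 86.2% in wild type libraries 1 to 3. Tuba1b held 23.7%, 20.4% and 21.5% in Prox1 cKO libraries 1 to 3, against 13.9%, 11.8% and 13.0% in wild type libraries 1 to 3. In both cases the groups lay well apart. The minor members were higher in share as well. Tuba1c held 1.45% to 1.52% in Prox1 cKO libraries and 0.517% to 0.906% in wild type libraries. Tuba4a held 0.288% to 0.496% in Prox1 cKO libraries and 0.195% to 0.276% in wild type libraries.

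In the beta class Tubb5 took a larger share and 3 other members a smaller one. Tubb5 held 79.2%, 76.9% and 77.9% of the summed beta RPKM in Prox1 cKO libraries 1 to 3, against 69.0%, 62.6% and 64.2% in wild type libraries 1 to 3, which is 78.0% ± 1.19 and 65.3% ± 3.30 (SD, n = 3 each). Tubb4b averaged 8.27% ± 0.287 in Prox1 cKO libraries and 13.1% ± 1.24 in wild type libraries. Tubb6 averaged 3.58% ± 0.386 in Prox1 cKO libraries and 8.12% ± 1.07 in wild type libraries. The share of Tubb2a, too, was lower, with 1.51%, 1.94% and 2.13% in Prox1 cKO libraries 1 to 3, against 4.64%, 6.76% and 6.27% in wild type libraries 1 to 3. Tubb2b averaged 7.97% ± 0.551 in Prox1 cKO libraries and 7.34% ± 0.829 in wild type libraries, and Tubb3 0.321% ± 0.0582 in Prox1 cKO libraries and 0.310% ± 0.0522 in wild type libraries, with overlap in both. For the other 8 members no share overlapped between the groups (exact permutation test, two-sided, p = 0.1 for each, the smallest that 3 against 3 allows, and 0.125 adjusted over the 10 shares). By level, only 5 of the 10 members did not overlap, beside 50.1% of all genes tested. For Tubb2b the exact permutation p was 0.4 and for Tubb3 0.9. Shares within a class add up to 100%, so a larger share of 1 member is tied to smaller shares of others: Tubb5 gained share while its own level was not called as changed.

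**Figure D3:**
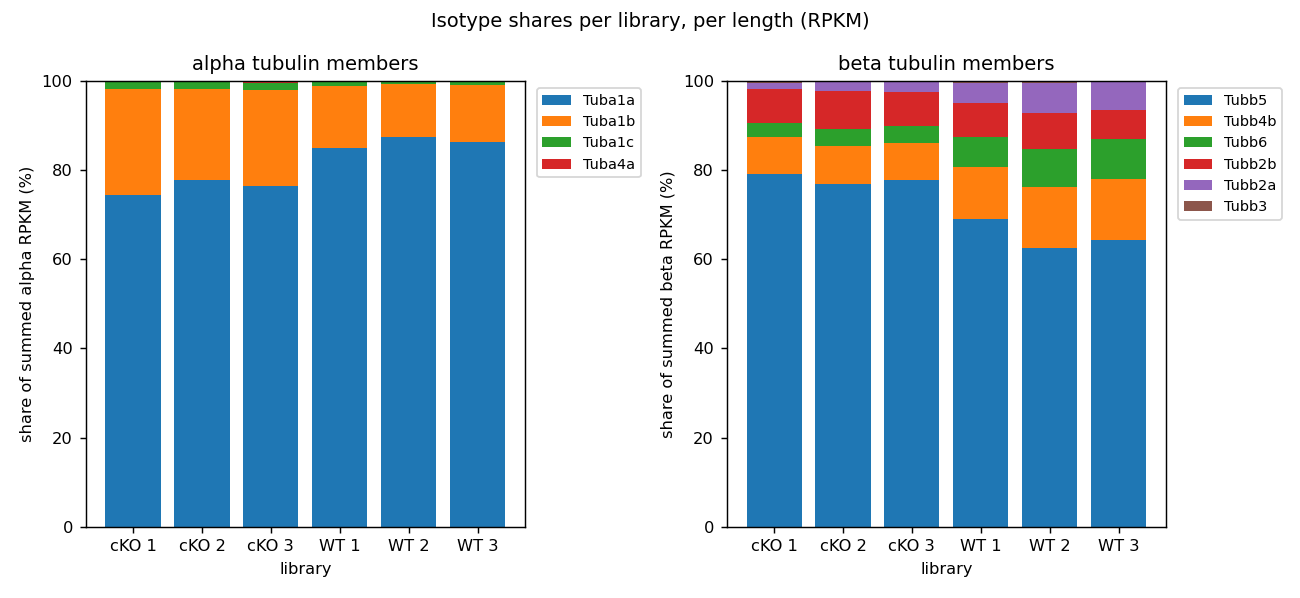
Share of each tubulin gene in the summed RPKM of its class (vertical axis, percent) in 3 Prox1 cKO libraries and 3 wild type libraries, with alpha members at left and beta members at right. Tuba1a takes 74.5% to 77.9% in Prox1 cKO libraries and 84.9% to 87.5% in wild type libraries, and Tubb5 takes 76.9% to 79.2% in Prox1 cKO libraries and 62.6% to 69.0% in wild type libraries, while Tuba4a and Tubb3 are too small to see in most bars.

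The order of levels per length differed at its top. In Prox1 cKO libraries Tubb5 came first with 725 ± 105 RPKM, then Tuba1a with 429 ± 66.1 and Tuba1b with 123 ± 22.9 (SD, n = 3), with no overlap between neighbours. Shared stretches made up 63.7% of Tuba1a and 0.0297% of Tubb5. The order of these genes may therefore depend on how reads that match several genes were counted, which is not known here. Tubb4b (76.9 ± 10.3 RPKM) and Tubb2b (74.0 ± 10.1 RPKM) followed and did not differ beyond their spread. Below them stood Tubb6, Tubb2a, Tuba1c, Tubb3 and Tuba4a, each apart from the next, down to 1.99 ± 0.271 RPKM for Tuba4a. In wild type libraries Tuba1a (557 ± 59.99 RPKM) and Tubb5 (536 ± 78.7 RPKM) overlapped at the top, and Tubb4b (106 ± 5.81 RPKM) stood above Tuba1b (83.1 ± 7.56 RPKM). Tubb6 (66.0 ± 3.67 RPKM), Tubb2b (60.4 ± 11.5 RPKM) and Tubb2a (47.8 ± 6.99 RPKM) came next, and each overlapped its neighbour. Tuba1c, Tubb3 and Tuba4a were the lowest 3 in both groups.

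The levels of the members were also summed by class. The 4 alpha members summed to 874, 951 and 724 TMM-scaled CPM in Prox1 cKO libraries 1 to 3, against 1115, 1412 and 1169 in wild type libraries 1 to 3. The 6 beta members summed to 2686, 2511 and 2241 TMM-scaled CPM in Prox1 cKO libraries 1 to 3, against 2650.2, 2719 and 2467 in wild type libraries 1 to 3. The alpha sums did not overlap (log2 difference -0.54, SE 0.156, exact permutation p = 0.1, the smallest that 3 against 3 allows), while the beta sums did (log2 difference -0.08, SE 0.0871, exact permutation p = 0.6). Per length, the ratio of summed alpha to summed beta RPKM was 0.578, 0.667 and 0.570 in Prox1 cKO libraries 1 to 3, against 0.719, 0.862 and 0.792 in wild type libraries 1 to 3. This ratio needs no scaling between libraries, and it was lower in every Prox1 cKO library (exact permutation test, two-sided, p = 0.1, and 0.167 adjusted over 5 sums and ratios). Its level, like the order above, may depend on how reads that match several genes were counted. All 10 members together summed to 3559.8, 3461 and 2965 TMM-scaled CPM in Prox1 cKO libraries 1 to 3, against 3765, 4131 and 3636 in wild type libraries 1 to 3. These sums did not overlap and were lower in Prox1 cKO libraries (log2 difference -0.21, SE 0.0988, exact permutation p = 0.1). As raw counts the 10 members took 0.427%, 0.380% and 0.324% of all counts in Prox1 cKO libraries 1 to 3, against 0.370%, 0.348% and 0.304% in wild type libraries 1 to 3, and these shares of all counts overlapped (exact permutation p = 0.4). Under library totals the log2 difference was -0.19 for the alpha sum, 0.27 for the beta sum and 0.14 for all 10 members, so the direction of the last 2 depended on the scaling.

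The genes whose products fold, modify or bind tubulin were counted from lists of known members, at the same threshold. New tubulin is folded by the chaperonin CCT, to which prefoldin delivers it, and is then joined into dimers by tubulin cofactors. The cofactor list here holds the cofactors Tbca, Tbcb, Tbcc, Tbcd and Tbce. It also holds Tbcel, Arl2 and Ttc5, which are not among those lettered cofactors. Of the 8 CCT subunit genes 7 fell and of 6 prefoldin genes 1 (Pfdn5) fell, where 16.8% of all genes tested fell. Of the 8 genes of the cofactor list 4 fell, beside the same 16.8%. Among the lettered cofactors these were Tbcb and Tbce, and the others were Tbcel and Arl2. None of the 22 genes rose by edgeR, DESeq2 or limma-voom, and all 22 edgeR changes were below 0. The median log2 change was -0.63 for CCT, -0.21 for prefoldin and -0.47 for the cofactor list, beside 0.04 over all genes. CCT and prefoldin genes were fixed as 1 list, of which 8 of 14 fell with a median of -0.50, and the split of that list was made later. The CCT gene with the largest change was Tcp1, at 416 ± 14.5 TMM-scaled CPM in Prox1 cKO libraries and 811 ± 112 in wild type libraries (log2 change -0.96, SE 0.126, edgeR adjusted p = 0.00105). Cct3 and Cct8 fell by 0.78 and 0.70 on the log2 scale, and Cct4, with a log2 change of -0.20, was not called. In the cofactor list Tbcb, which binds alpha tubulin, was at 57.19 ± 6.99 CPM in Prox1 cKO libraries and 108 ± 17.3 in wild type libraries (log2 change -0.92, SE 0.142, edgeR adjusted p = 0.00227). Tbcel and Arl2 of that list fell by 0.62 and 0.59 on the log2 scale. Tbca, which holds beta tubulin and had the highest cofactor level when both groups are summed, had a log2 change of -0.41 (edgeR adjusted p = 0.0821). Under library totals only Tcp1 and Cct3 of the chaperone genes and Tbcb of the cofactor list stayed below the threshold, where 945 of all 14271 genes tested fell.

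**Figure D4:**
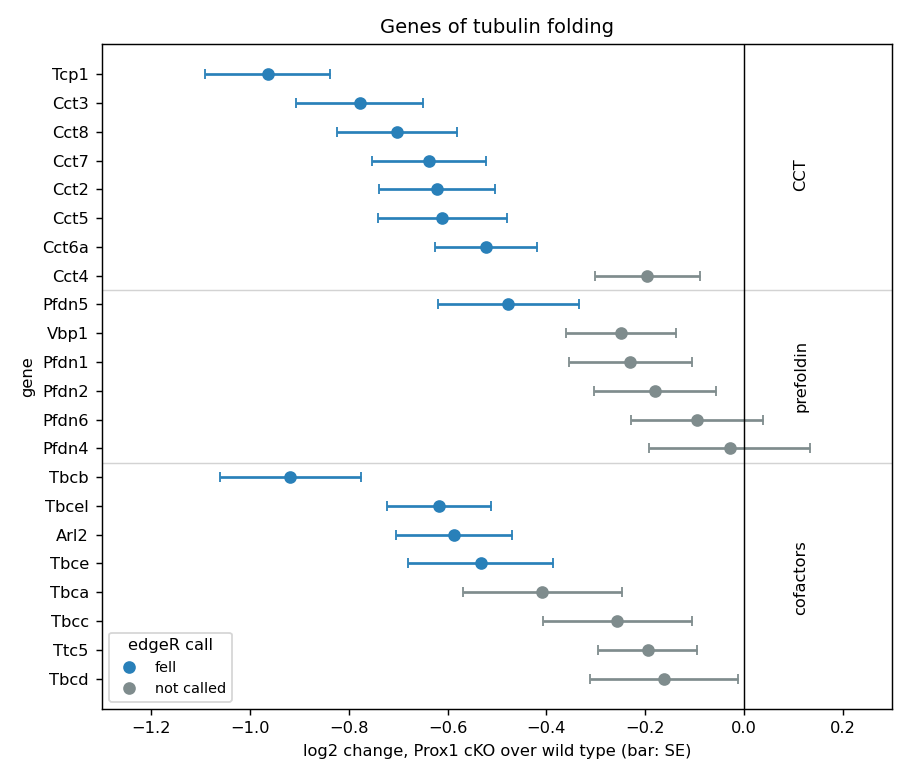
Log2 change, Prox1 cKO over wild type (horizontal axis, bars are SE), of 8 CCT genes, 6 prefoldin genes and the 8 genes of the cofactor list, coloured by edgeR call. All 22 points lie below 0 with TMM scaling and 12 are called.

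Of the 25 genes of tubulin-modifying enzymes, 23 were tested, of which 5 rose and 4 fell, where 15.9% of all genes tested rose, 16.8% fell and 32.6% changed. Under library totals 6 rose and 1 fell, where 5423 of all 14271 genes tested rose and 945 fell. Vash2, a carboxypeptidase that removes the terminal tyrosine of alpha tubulin, was at 95.5 ± 11.0 TMM-scaled CPM in Prox1 cKO libraries and 31.8 ± 4.67 in wild type libraries, a 3.00-fold rise (log2 change 1.58, SE 0.137, edgeR adjusted p = 0.000181). Its paralog Vash1 rose with a log2 change of 0.87 (edgeR adjusted p = 0.0314), and Agtpbp1, a deglutamylase, fell by 0.56 on the log2 scale (edgeR adjusted p = 0.0364). With the replicate number as a block Vash1 did not pass (edgeR adjusted p = 0.0791). The call on Vash1 was also lost without Prox1 cKO library 2 or 3 or wild type library 2 or 3, and the call on Agtpbp1 without any Prox1 cKO library or without wild type library 2 or 3. Neither passed in limma-voom (adjusted p = 0.0505 for Vash1 and 0.0501 for Agtpbp1), and Agtpbp1 did not pass under library totals (edgeR adjusted p = 0.305). Without Prox1 cKO library 2, wild type library 2 or wild type library 3 only 1 enzyme gene fell, and between 2 and 3 rose. Ttll4, a glutamylase and the enzyme gene with the most counts, was not called (136 ± 6.44 CPM in Prox1 cKO libraries and 158 ± 6.32 in wild type libraries, edgeR adjusted p = 0.0772). Of the other Ttll genes listed, Ttll5 (log2 change -0.42, edgeR adjusted p = 0.0191) and Ttll13 (log2 change -1.70, edgeR adjusted p = 0.00979) fell. Ttll13 was low, at 0.609 ± 0.233 CPM in Prox1 cKO libraries and 1.81 ± 0.107 in wild type libraries. The remaining Ttll genes were not called or not tested.

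Of 26 genes of microtubule-associated proteins and stathmins, 2 rose and 5 fell, beside 15.9% and 16.8% of all genes tested and 32.6% changed in either direction. The count that rose was 11 under library totals and 4 in DESeq2, with 5 that fell in both. Of all 14271 genes tested, 5423 rose and 945 fell under library totals, and 2307 rose and 2526 fell in DESeq2. Tppp3, a microtubule-bundling protein, was at 12.5 ± 0.283 TMM-scaled CPM in Prox1 cKO libraries and 48.0 ± 5.03 in wild type libraries, a 3.83-fold fall (log2 change -1.94, SE 0.115, edgeR adjusted p = 5.05e-05). Map6, which makes microtubules resistant to cold, was at 38.2 ± 1.49 CPM in Prox1 cKO libraries and 133 ± 10.7 in wild type libraries (log2 change -1.80, SE 0.0966, edgeR adjusted p = 4.02e-05). Map7d2 fell by 1.16 on the log2 scale. Map1b, the gene of the list with the highest level when both groups are summed, spread widely among Prox1 cKO libraries and was not called (514 ± 174 CPM in Prox1 cKO libraries and 346 ± 15.4 in wild type libraries, edgeR adjusted p = 0.0794), but passed under library totals with a log2 change of 0.90 (edgeR adjusted p = 0.00562). Without wild type library 1 the number that rose was 4, where 2400 of all 14605 genes tested rose. Without Prox1 cKO library 2 or wild type library 2 or 3 it was 1, where 1577 of 14517, 836 of 14603 and 952 of 14574 genes rose.

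Of 17 genes for proteins at growing microtubule ends or that sever microtubules, 1 rose and 6 fell, beside 15.9% and 16.8% of all genes tested. Under library totals 5 rose and 3 fell, where 5423 of all 14271 genes tested rose and 945 fell. Clip1, a plus-end protein, was at 112 ± 2.96 TMM-scaled CPM in Prox1 cKO libraries and 44.4 ± 11.1 in wild type libraries, a 2.53-fold rise (log2 change 1.34, SE 0.164, edgeR adjusted p = 0.000764). Mapre3, of the end-binding family, fell by 1.29 on the log2 scale, the katanin-like gene Katnal1 by 0.82 and Ckap5, a microtubule polymerase, by 0.44, of which the call on Ckap5 was lost under library totals (edgeR adjusted p = 0.552). Of the 8 genes of the gamma-tubulin ring complex, from which microtubules grow, Nedd1 rose (log2 change 0.52, SE 0.0968, edgeR adjusted p = 0.00511) and 7 were not called, where 15.9% of all genes tested rose. Under library totals 4 of the 8 rose, among them Mzt1 (log2 change 0.48, edgeR adjusted p = 0.0113), where 5423 of all 14271 genes tested rose. The median log2 change was then 0.395 for this list and 0.392 over all genes tested. Outside the 10 members, 6 of 10 other tubulin genes were tested and 1 fell, where 16.8% of all genes tested fell. It was Tubg2 (1.92 ± 0.477 CPM in Prox1 cKO libraries and 3.75 ± 0.405 in wild type libraries, edgeR adjusted p = 0.025). That call was lost under library totals (edgeR adjusted p = 0.14) and without Prox1 cKO library 2 or 3, wild type library 2 or wild type library 3. Tubb4a, with the most counts of these, was at 67.6 ± 5.04 CPM in Prox1 cKO libraries and 67.8 ± 4.96 in wild type libraries.

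The genes most like a tubulin member in level were found by Pearson correlation of log2 CPM over the 6 libraries among 9018 genes with at least 10 CPM in both groups. The values are descriptions, since the libraries fall into 2 groups and genes with a group difference of any size score high. For Tubb2a they were Tcf25, Tmcc1 and Naaa (r = 1.000, 0.999 and 0.999), whose own log2 changes were -0.54, -0.58 and -1.20. For Tubb6 they were Spg20, Dbnl and Sqle (r = 1.000, 0.999 and 0.999), with log2 changes of -1.37, -2.11 and -0.59. For Tubb3, which was not called, they were Rnf138, Sdccag8 and Impa1 (r = 0.963, 0.960 and 0.957), none of them called.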

How the data were processed

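Per the file headers, each of the 6 deposited tables gives every feature 3 values, its raw count, its CPM and its RPKM. The raw counts made by the authors were whole numbers. For the features kept, the deposited CPM equals count over library total, within 1e-06, with no TMM factor. The RPKM made by the authors is that CPM over 1 length per feature. Per the submitters' processing notes, the build was GRCm38 and edgeR was among the tools. Aligner, counter and annotation release: not given in the sources used here. Per the labels' protocols, mRNA was taken with poly-T beads and sequenced as single-end reads of 51 bp. Of 41128 features, 26 whose deposited CPM did not equal count over library total within 1e-06 were left out, and 19852 had no count in any library.

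Counts were filtered with filterByExpr (minimum count 10), scaled by TMM and tested with the edgeR 4.0.16 quasi-likelihood test in R 4.3.3, with Benjamini-Hochberg adjustment over 14271 genes and a threshold of 0.05. Of these, 4659 passed, 2263 higher and 2396 lower in Prox1 cKO. The procedure was tested on simulated data. Shares, class sums and the alpha to beta ratio were compared by exact two-sided permutation tests over libraries. A count of 3, the level that a count of 0 allows, is 0.106 to 0.330 CPM, and covers counting error only. As the labels do not say how litters were divided among pools, p-values cover only the spread of the pools.

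Members and gene lists were chosen with earlier results of these data known. Named were all members, Prox1, per list the 3 called genes of largest change with a mean of 5 CPM or more in the group where it is higher and the gene of highest level, and the 3 genes most like Tubb2a, Tubb6 and Tubb3 with 10 CPM or more in both groups. Cct4, Pfdn5, Tbce, Ttll5, Ttll13, Tubg2, Syt1 and Elavl4 were chosen after their values were seen, as were the 5 count ratios, which have no test. Sequences are GENCODE M21 transcripts, and alpha tubulin sequences are not reported here. Svbp and Map7d3 were matched by identifier, and Tbcc1 and Lim2 were not analysed here. Alternatives were DESeq2 1.42.0, limma-voom (limma 3.58.1), library totals, upper quartile scaling, TMM without crystallin genes, other filters, the replicate number as a block, leaving out each library, and other forms of share. TMM without Lars2 and Gm26917, shares per unshared stretch and other scalings and filters for the gene lists were added after seeing the data. The split of the chaperone list into CCT and prefoldin was not part of the fixed lists.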

Additional observations from a re-analysis of the deposited data

How the results depend on the processing

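Tubb2a, Tubb4b and Tubb6 fell under all 15 alternatives run, and Tuba1a under all of these but library totals. Library totals called 5423 of 14271 genes as higher and 945 as lower in Prox1 cKO. They moved the median log2 change of all genes to 0.39, against 0.04 with TMM, and the share of calls that were higher in Prox1 cKO to 85.2%, against 48.6%. With them 3 members rose (Tuba1b, Tuba1c and Tubb5) and 3 fell, and the log2 difference was -0.19 for summed alpha, 0.27 for summed beta and 0.14 for both classes, so the last 2 changed sign, as did the uncalled changes of Tubb2b (0.29), Tubb3 (0.26), Tubb4a (0.34) and Ttll4 (0.13). Tubb4a also changed sign under limma-voom (0.0011), upper quartile scaling (0.0454) and the 1 CPM filter (0.0053). The cause was not tested. Leaving out 1 library at a time gave 2267 (without wild type library 2) to 5317 (without wild type library 1) genes changed, with 2475 without wild type library 3, and 0 to 2 members that rose, while 4 fell each time. The log2 change ranged from -0.0144 to 0.25 for Tuba4a, from -0.20 to 0.0358 for Tubb2b, from -0.34 to 0.0127 for Tubb3 and from -0.0635 to 0.0578 for Tubb4a, all uncalled.

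Differences in share (percentage points, Prox1 cKO minus wild type) kept their direction in every form of share tried except that of Tubb3. From raw counts they were 0.302 for Tuba4a, -2.33 for Tubb2a, 9.17 for Tubb5, -2.97 for Tubb6 and -0.0061 for Tubb3. Per annotated exon base Tubb6 was -3.43. Without Tuba1c and Tubb2a they were 10.1 for Tubb5 and -0.0021 for Tubb3. Per stretch not shared with another gene they were 0.567 for Tuba1c, -6.53 for Tubb2a, -6.32 for Tubb4b and -2.87 for Tubb6. Tubb3 ranged from -0.0197 to 0.0380 when 1 library was left out.

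With the replicate block 4176 genes changed (2020 higher, 2156 lower), and 1 member rose and 4 fell. Among the genes followed singly under the alternatives, Vash1 alone lost its call with the block (edgeR adjusted p = 0.0791). Of the CCT and prefoldin genes 7 fell with it, against 8 without it. Other called genes, such as Pfdn5, Syt1 and Elavl4, were not followed singly. Deviations of same-numbered libraries correlated at -0.0276, 0.254 and 0.111, and Prox1 cKO library 1 correlated best with wild type library 2, so the numbers were not taken to pair the pools. The intervals of Tubb3 (SE 0.246) and Tuba4a (SE 0.202) were the widest of the 10, and what depth adds to them was not tested.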

Other observations

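Some genes of the tubulin-modifying and microtubule-binding lists changed besides those with the largest changes, and they are named here after their values were seen. Levels are TMM-scaled CPM as mean ± SD (n = 3 each), and adjusted p-values are from the edgeR quasi-likelihood test. Hdac6, a tubulin deacetylase, was at 74.9 ± 2.57 in Prox1 cKO libraries and 51.8 ± 4.77 in wild type libraries (log2 change 0.53, edgeR adjusted p = 0.00459), while Sirt2, another deacetylase of tubulin, was at 41.4 ± 3.52 in Prox1 cKO libraries and 58.9 ± 9.80 in wild type libraries (log2 change -0.51, edgeR adjusted p = 0.0228). The call on Hdac6 was kept under all 15 alternatives, while that on Sirt2 was lost under library totals (edgeR adjusted p = 0.441) and without Prox1 cKO library 2 (0.0758), wild type library 2 (0.0692) or wild type library 3 (0.0792). Vash1, Vash2 and Agtpbp1, of the enzymes that trim glutamate or tyrosine, are described above. Of the others, Agbl2 rose, at 2.60 ± 0.425 in Prox1 cKO libraries and 1.26 ± 0.0512 in wild type libraries (log2 change 1.02, edgeR adjusted p = 0.0181), and the call was lost without Prox1 cKO library 2 (0.0517), wild type library 2 (0.0802) or wild type library 3 (0.0677). Agbl5 also rose (log2 change 0.46, edgeR adjusted p = 0.0123), but did not pass when wild type library 2 (0.0694) or wild type library 3 (0.0657) was left out.

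Map4, a microtubule-associated protein of most non-neuronal cells, was at 226 ± 31.3 in Prox1 cKO libraries and 371 ± 19.5 in wild type libraries (log2 change -0.72, edgeR adjusted p = 0.00332). Map9 was at 38.6 ± 3.02 in Prox1 cKO libraries and 82.2 ± 8.15 in wild type libraries (log2 change -1.09, edgeR adjusted p = 0.00028). Mtus1, a microtubule-binding protein, was at 98.96 ± 4.55 in Prox1 cKO libraries and 48.2 ± 15.3 in wild type libraries (log2 change 1.04, edgeR adjusted p = 0.0062). The end-binding gene Mapre2 fell by 0.61 and the katanin-like gene Katnal2 by 0.77 on the log2 scale. The call on Mapre2 was lost under library totals (edgeR adjusted p = 0.0936), and those on Map4, Map9, Mtus1 and Katnal2 were kept under all 15 alternatives.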
